A study of Mus musculus with 14 samples.

Results

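The genes described here are 9 members of the S100 family that are not the neutrophil pair S100a8 and S100a9, namely S100a1, S100a4, S100a6, S100a10, S100a11, S100a13, S100a16, S100b and S100g. They were taken by gene symbol from a table of 55487 mouse genes, and all 9 were found and passed the filter on low counts. RNA was sequenced from tail intervertebral discs of 14 male mice in 4 groups, with 5 discs pooled per mouse. The db/db mice (n=3) carried 2 mutant copies of the leptin receptor gene Lepr, and their db/+ littermates (n=3) carried 1 mutant and 1 normal copy, so the controls were not free of the mutation. Both were 3 months old, and the mutation is present in every tissue from birth. The other pair of groups was C57BL/6J mice that entered the study at 12 weeks of age. STZ-HFD mice (n=4) ate a high-fat diet for 4 to 6 weeks, received a single dose of 100 mg/kg streptozotocin, a toxin of insulin-producing cells, and stayed on the diet for 12 weeks more. Con+Veh mice (n=4), which the labels call wild-type, ate standard chow and received the citrate buffer alone. Diet and toxin were given together, so their effects cannot be told apart. The 2 pairs of groups also differed in age and genotype, and levels set across them are descriptive.

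S100 proteins are small calcium-binding proteins that work mostly as dimers. Calcium opens a surface on the dimer that binds partner proteins inside the cell, and several members are also released and bind receptors such as RAGE, the receptor for advanced glycation end-products encoded by Ager. In cartilage and disc tissue, S100b and S100a1 are familiar markers of chondrocyte-like cells, whereas S100a4 is known from fibroblasts and macrophages.

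Total counts per library were 16076908 to 58943169, of which 28.06 to 60.25% fell on ribosomal RNA genes. The discs carried the transcripts that define cartilage, with Acan at 318 to 9314 CPM (counts scaled to library size) and Col2a1 at 109.7 to 12490 CPM. The notochordal gene T was at 12.15 to 305.6 CPM, while Noto was at 0 in 11 of 14 libraries. Skeletal muscle transcripts were also plentiful, at a summed 3114 to 24730 CPM over 12 markers. In such bulk samples, fewer cells of a type and less RNA per cell cannot be told apart. Con+Veh replicate 1 stood apart with the lowest quality weight in the fit, 0.275 on a scale that reached 3.05. Con+Veh replicate 2 had 0.462, while replicates 3 and 4 had 3.05 and 1.81, so estimates for Con+Veh rested mostly on replicates 3 and 4. The group was split in makeup too. Endothelial markers summed to 216.4 and 251.4 CPM in replicates 1 and 2 and to 892.3 and 915.5 CPM in replicates 3 and 4. STZ-HFD replicate 1 also stood apart, with a weight of 0.379, a TMM scaling factor of 1.58 against 0.693 to 0.742 in the rest of its group, and a muscle sum of 10110 CPM against 22310 to 24730.

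Of the 9 genes, 7 are on chromosome 3 (GRCm38). S100a1, S100a13, S100a16, S100a4 and S100a6, 5 genes, lie within 113.1 kb, and S100a11 and S100a10 start 2.9 Mb further along. S100a1 (chr3:90511034-90514392, minus strand) and S100a13 (chr3:90514435-90524581, plus strand) stand head to head with 42 bp between them in GENCODE coordinates. In RefSeq coordinates of the same build they overlap, since S100a1 ends at 90514330 and S100a13 starts at 90514233. The strand setting of the counting is not given in the sources used here, so reads from the overlap cannot be assigned to either gene with certainty. S100b is at chr10:76253853-76261159, inside Dip2a on the other strand, and S100g is at chrX:162961992-162964599, within Ctps2 on the other strand, with no shared exon in either case. S100a4 (chr3:90603771-90606045) shares 156 bp of exon with the read-through gene Gm42674, which had 0 counts in these libraries.

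The start regions of 3 members are shown because their start regions differ in makeup. S100a4 was called in db/db, S100g was called for the difference between the models and in neither model alone, and S100a11 was the most abundant member per kb of exon. Each runs from 100 bases before the RefSeq start site through the 20 bases from it, in GRCm38.p6, with capitals for TATAAA (the TATA box), GGGCGG (the GC box) and TGACTCA (the AP-1 element, whose other strand reads TGAGTCA). They cover chr3:90603670-90603789 (plus strand) for S100a4, chrX:162964580-162964699 (minus strand) for S100g and chr3:93520396-93520515 (plus strand) for S100a11.
S100a4: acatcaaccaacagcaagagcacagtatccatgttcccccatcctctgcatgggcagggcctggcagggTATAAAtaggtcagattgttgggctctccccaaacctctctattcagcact
S100g: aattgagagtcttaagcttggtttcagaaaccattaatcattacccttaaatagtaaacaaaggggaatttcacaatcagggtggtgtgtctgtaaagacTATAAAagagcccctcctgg
S100a11: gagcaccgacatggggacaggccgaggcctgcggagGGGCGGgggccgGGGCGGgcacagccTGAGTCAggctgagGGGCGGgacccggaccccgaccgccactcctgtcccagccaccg

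The search covered both strands of 300 bases per start, in 9 windows that represented 8 of the members. TATAAA was found in S100a4, 31 bases before the start, and in S100g at the start itself, against 13.6% of 32851 mouse windows of that length. TGACTCA was found in S100a11 alone among the members, 38 and 136 bases before the start, against 5.2% of all windows. GGGCGG was found in S100a11, 3 times, and before the inner start of S100a16, against 35.7% of all windows. These are matches of letters and no test of any factor. The windows of S100a1 and S100a13 share 204 bases.

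Levels between genes were compared as CPM per kb of exon, with 1367 bp of exon for S100a6 and 511 bp for S100a11. The order of these 2 genes depended on that division. In CPM the mean of S100a6 was above that of S100a11 in db/db (152.9 and 124.5) and STZ-HFD (77.8 and 71.9). It was below in db/+ (67.4 and 99.5) and Con+Veh (82.4 and 98.7). Per kb, S100a11 was the most abundant member in each group, at 194.7 ± 27.7 in db/+, 243.7 ± 49.7 in db/db, 193.2 ± 67.8 in Con+Veh and 140.7 ± 12.7 in STZ-HFD (mean ± SD of the level per kb). In db/+ and STZ-HFD its range lay above that of the next gene, S100a6, whereas in db/db and Con+Veh it overlapped with S100a4. Below it, S100a6, S100a1 and S100a4 overlapped their neighbors in db/+, with means of 49.3, 48.9 and 40.6 per kb. In db/db the mean of S100a4 was 187.2 ± 81.1 per kb. The overlap of S100a4 with S100a11 in db/db was seen in the gene counts and not in the transcript estimates. Those estimates, scaled to CPM of all transcript estimates and divided by the same kb of exon, were 171.2, 73.7 and 107.1 for S100a4 in the 3 db/db libraries against 877.1, 626.8 and 572.6 for S100a11, and S100a4 was in position 2, 5 and 5 of 8 genes there. S100g was last in each group, with means of 0.87 to 5.20 per kb. S100a13 and S100a16 were next to last and overlapped each other in each group.

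**Figure D1:**
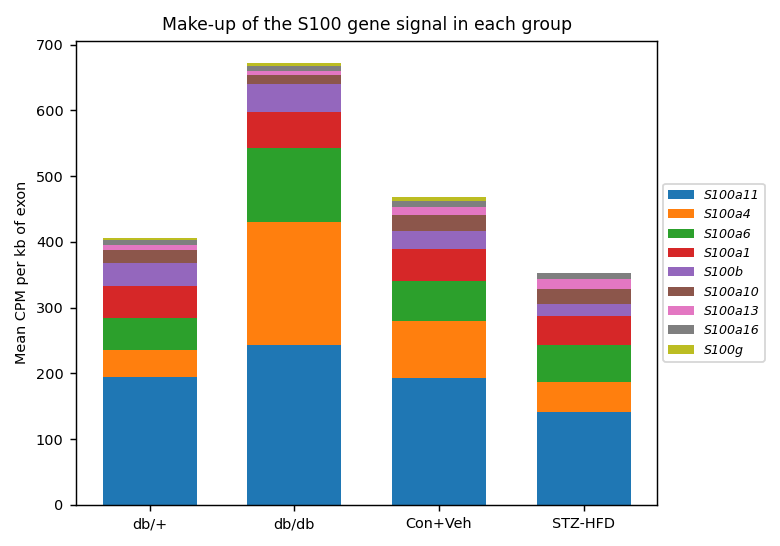
Stacked bars give the mean CPM per kb of exon of each S100 gene in the 4 groups (3, 3, 4 and 4 libraries), drawn from 0. S100a11 is the largest block in each bar, and S100a4 grows from 40.6 in db/+ to 187.2 in db/db.

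By library, the 9 genes summed to 339.6 to 461.1 per kb in db/+ and 471.7 to 815.3 in db/db, ranges that did not overlap. They summed to 275.3 to 574.2 in Con+Veh and 283.7 to 447 in STZ-HFD, where they did. S100a4 made up 8.5 to 11.2% of the sum in db/+ and 20.4 to 30.9% in db/db. The share of S100a11 was 47.2 to 49% in db/+ and 30.9 to 43.5% in db/db.

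The question of each comparison was how a diabetic state changed disc transcripts, in a genetic model and in an induced model. A gene was called changed at an adjusted p under 0.05 with a log2 fold change of at least 1 in size, using limma with Benjamini-Hochberg adjustment over 16915 genes. In db/db against db/+, 1 of the 9 S100 genes was called, S100a4, which was higher, where 1.66% of all genes tested were called (1.23% higher). Estimated changes were above 0 for 6 of 9, against 47.3% of all genes, and the median log2 fold change of the 9 was 0.25 against -0.04 for all genes. In STZ-HFD against Con+Veh, 0 of 9 were called by limma, where 2.61% of all genes were called (1.31% lower). The unadjusted p was under 0.05 for 4 of these 9 genes, all lower, against 9.54% of all genes. edgeR's quasi-likelihood test also called 0 and DESeq2 called 1, S100g. The median log2 fold change of the 9 was -0.31 in STZ-HFD, against -0.04 for all genes, and 0 of the 9 estimates were above 0, against 47.2% of all genes. That count of 0 depended on the fit. With a library left out, S100a13, S100a16 and S100a6 reached up to 0.25, 0.036 and 0.003. S100a13 was also above 0 with DESeq2, with edgeR and without quality weights.

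**Figure D2:**
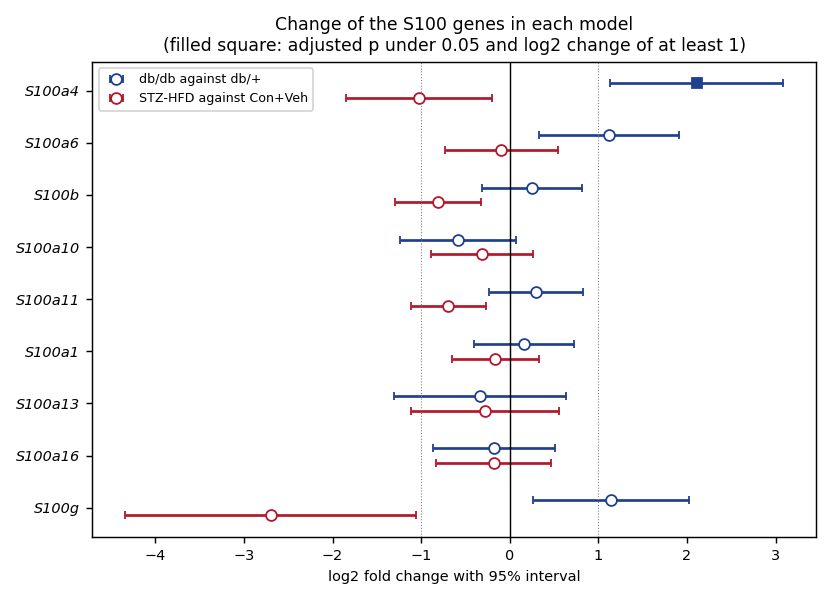
Points give the log2 fold change of each S100 gene with its 95% interval, in db/db against db/+ (blue) and STZ-HFD against Con+Veh (red), with dotted lines at a change of 1 in size. Only S100a4 in db/db, at 2.11, is drawn as a filled square, the mark of a called gene.

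Among the members known as RAGE ligands, S100a4 was the only one called in db/db discs by limma, while S100a6 was also higher there but was not called. S100a4 promotes cell motility and binds non-muscle myosin. It was at 30.2, 20.6 and 20.2 CPM in the 3 db/+ libraries and at 147, 56.2 and 124.7 CPM in the 3 db/db libraries. The lowest db/db library was above the highest db/+ library, a separation seen in the higher direction for 14.1% of all genes. S100a4 rose 4.32-fold, which is 2.11 on the log2 scale, with SE 0.46 and a 95% interval of 1.13 to 3.09 (adjusted p = 0.0322, limma). edgeR's quasi-likelihood test gave a log2 fold change of 2.21 with an adjusted p of 0.202, and limma without quality weights gave 2.12 with 0.152, so the call was lost with both. It was also lost without db/+ replicate 2 (2.03, adjusted p = 0.110), db/+ replicate 3 (2.03, 0.0686), db/db replicate 1 (1.85, 0.120) or db/db replicate 3 (1.96, 0.104), by limma.

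In the induced model S100a4 was at 15.7, 58.4, 49.2 and 79.7 CPM in Con+Veh and at 12.5, 23.1, 53.8 and 17.7 CPM in STZ-HFD. The groups overlapped, with Con+Veh replicate 1 among the low libraries and STZ-HFD replicate 3 among the high ones. The estimate was -1.02 on the log2 scale with SE 0.39 (adjusted p = 0.168, limma). With 1 library left out it spanned -1.61, without STZ-HFD replicate 3, to -0.73, without Con+Veh replicate 4 (adjusted p of 0.105 to 0.625 over the 14 fits by limma). The change in db/db minus that in STZ-HFD was 3.13 on the log2 scale with SE 0.61 (adjusted p = 0.0216, limma), a call that 1.77% of all genes shared. The difference was not called by edgeR's quasi-likelihood test (3.13, adjusted p = 0.144) or by limma without quality weights (3.03, 0.167). It was not called without Con+Veh replicate 3 or 4, db/+ replicate 2, or db/db replicate 1 or 3, with adjusted p of 0.0540 to 0.135 in those fits by limma.

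The S100a4 change was smaller in the transcript estimates than in the gene counts. Transcript-level estimates from Salmon summed to 16.67 to 18.37% of the S100a4 gene count in db/+ and to 7.33 to 9.46% in db/db, ranges that did not overlap. Estimated S100a4 transcripts were 270.8, 201.8 and 217 in db/+ and 840.3, 370 and 582 in db/db. Scaled to CPM of all transcript estimates they were 40.8, 24.6 and 24.1 in db/+ and 100, 43.0 and 62.6 in db/db, so the lowest db/db library was barely above the highest db/+ library. With gene totals from these estimates, the log2 fold change fell to 1.11 with SE 0.32 (adjusted p = 0.0866, limma), and the difference between models was 2.16 (adjusted p = 0.0602). S100a4-201 carried 99.49% of the estimate over all libraries. Which part of the S100a4 gene count the estimates leave out was not tested.

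**Figure D3:**
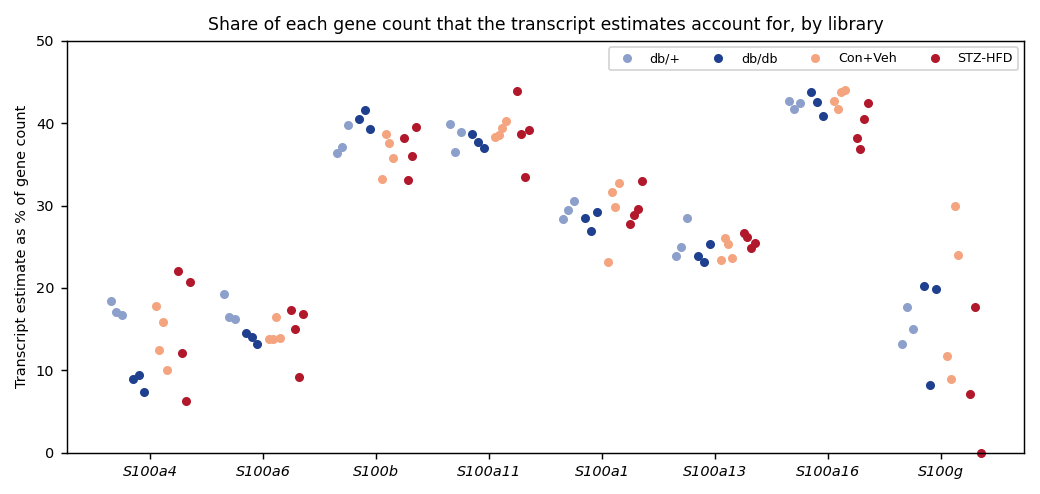
Points give, for each library, the summed transcript estimates of a gene as a percent of its gene count, by group. S100a4 in db/db lies at 7.33 to 9.46%, below the 16.67 to 18.37% of db/+, while S100a11 and S100b lie at 33.1% or more in each library. S100a10 is not drawn, and S100g has no point for STZ-HFD replicate 2, whose gene count was 0.

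S100a6, a partner of the ubiquitin-ligase adaptor encoded by Cacybp, was at 70, 83.9 and 48.3 CPM in db/+ and at 173.4, 96.4 and 189 CPM in db/db. The groups did not overlap. Its transcript estimates were 16.18 to 19.28% of the gene count in db/+ and 13.24 to 14.58% in db/db, again without overlap. The log2 fold change was 1.12 with SE 0.37 and an interval of 0.33 to 1.91, and it did not pass the adjustment (adjusted p = 0.109, limma). In Con+Veh S100a6 was at 21, 136.5, 85.2 and 86.7 CPM and in STZ-HFD at 83.1, 52.3, 112 and 63.6 CPM. Con+Veh spanned the whole range of STZ-HFD, and the log2 fold change was -0.10 with an interval of -0.73 to 0.54.

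S100b, the RAGE ligand used as a marker of Schwann cells and chondrocytes, was at 57.4, 47.9 and 48.8 CPM in db/+ and at 59.4, 47.1 and 81 CPM in db/db. The groups overlapped, with a log2 fold change of 0.25 and an interval of -0.32 to 0.82. It was at 29.1, 30, 41.9 and 57.7 CPM in Con+Veh and at 29.9, 38.7, 25.5 and 19.9 CPM in STZ-HFD. The induced-model estimate was -0.81 with SE 0.23 (adjusted p = 0.0643, limma), which did not pass. Over the 14 fits with 1 library left out it spanned -0.97 to -0.55, with adjusted p of 0.029 to 0.462 by limma, and 0 fits called it. The 13 chondrocyte markers, none of them at 0 in any library, summed to 3650 to 16470 CPM in Con+Veh and 1005 to 2085 CPM in STZ-HFD. Of the 13, 6 were called lower, against 1.31% of all genes. The 9 Schwann cell markers summed to 330.8 to 2690 CPM in Con+Veh and 482.4 to 2174 CPM in STZ-HFD, with 0 called by limma and 1 at an unadjusted p under 0.05. The part of either cell type in the S100b values was not tested.

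**Figure D4:**
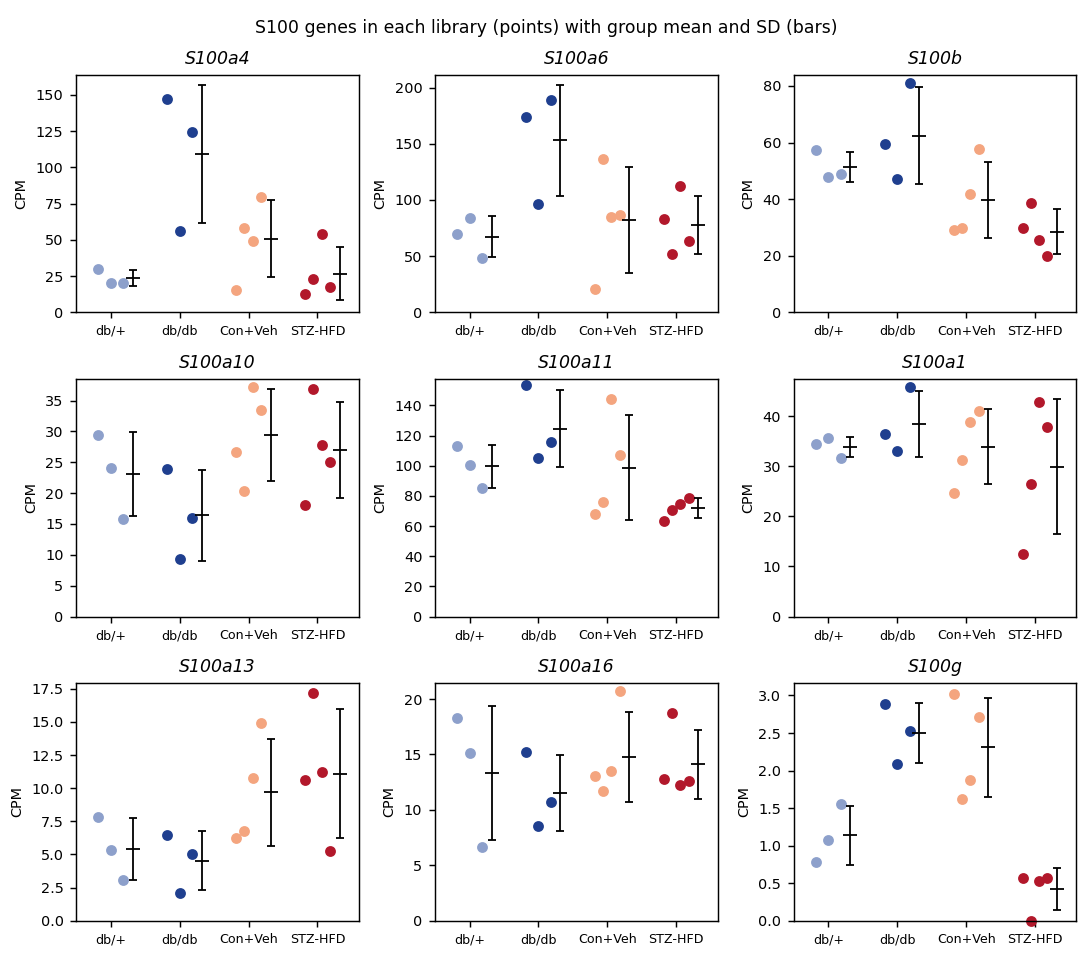
Each panel plots the CPM of an S100 gene in each library on an axis from 0, with the group mean and SD beside the points. For S100a4 the 3 db/db libraries, at 56.2 to 147, lie above the db/+ libraries, at 20.2 to 30.2, and for S100g the 4 STZ-HFD libraries, at 0 to 0.576, lie below Con+Veh, at 1.62 to 3.02.

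Markers of macrophages, neutrophils and fibroblasts were measured beside these ligands. The 10 macrophage markers summed to 123.4 to 193.2 CPM in db/+ and 141.6 to 270.8 in db/db, with 0 of 10 called by limma and 2 at an unadjusted p under 0.05. In Con+Veh they summed to 164.2 to 337.2 CPM and in STZ-HFD to 117 to 205.4, with 4 of 10 called lower, against 1.31% of all genes. The 10 neutrophil markers, S100a8 and S100a9 among them, summed to 7.43 to 17.4 CPM in db/+ and 18.6 to 53.6 in db/db, and Ly6g was at 0 in 13 of 14 libraries. Lcn2 had 7840 counts over the 14 libraries, against 8 to 848 for each other marker, so the sum mostly followed Lcn2. Only 3 of these 10 passed the filter, with 0 called by limma and 1 at an unadjusted p under 0.05 in each model. In Con+Veh they summed to 3.37 to 32.6 CPM and in STZ-HFD to 4.43 to 6.91, with overlap. The 9 fibroblast markers summed to 21640 to 30920 CPM in db/+ and 12650 to 25830 in db/db, with overlap and a lower median in db/db. Col1a1 and Fn1 dominated that sum, with 5653741 and 3079654 counts over the 14 libraries, against 14537 to 343458 for each other marker. Taken marker by marker, 7 of 9 estimates in db/db were above 0, against 47.3% of all genes. Their median log2 fold change was 0.43, against -0.04 for all genes. None of the 9 was called by limma in db/db, where 4 had an unadjusted p under 0.05, all higher, against 21.1% of all genes in either direction. Ranges of 4 of the 9 markers lay wholly higher in db/db, against 14.1% of all genes, and the range of 1 lay wholly lower. In Con+Veh the fibroblast markers summed to 3996 to 7385 CPM and in STZ-HFD to 1545 to 3922. Of the 9, 2 were called lower, against 1.31% of all genes. The part of these cells in the S100a4 and S100a6 values was not tested.

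The annexin partners were S100a11 and S100a10. S100a11, which binds annexin A1, was at 113.2, 100.3 and 85 CPM in db/+ and at 153.2, 104.9 and 115.5 CPM in db/db, with overlap and a log2 fold change of 0.30 (interval -0.23 to 0.83). It was at 67.9, 75.8, 144.1 and 107 CPM in Con+Veh and at 63.6, 70.4, 74.9 and 78.7 CPM in STZ-HFD. The STZ-HFD libraries lay close together at the low end of the Con+Veh range, and the estimate of -0.69 on the log2 scale with SE 0.20 did not pass (adjusted p = 0.0692, limma). The estimate rested on Con+Veh replicate 3, the highest library, without which it was -0.33 (adjusted p = 0.827, limma). Over the 14 fits with 1 library left out it spanned -0.76 to -0.33, with adjusted p of 0.0391 to 0.827 by limma, and 0 fits called it. It was -0.43 with DESeq2 and -0.41 with limma without quality weights. The annotated processed pseudogene S100a11-ps had 0 to 8 counts per library.

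S100a10, the light chain bound to annexin A2 at the plasma membrane, was at 29.3, 24.1 and 15.8 CPM in db/+ and at 24, 9.29 and 16 CPM in db/db. The groups overlapped, with a log2 fold change of -0.59 and an interval of -1.24 to 0.07. It was at 26.6, 20.3, 37.1 and 33.4 CPM in Con+Veh and at 18, 36.8, 27.8 and 25.1 CPM in STZ-HFD. The estimate was -0.31, with an interval of -0.88 to 0.26. Its partners were not called in either model. Anxa2 had log2 fold changes of -0.18 in db/db and -0.60 in STZ-HFD, and Ahnak, a scaffold of the same complex, had 0.23 and -0.14.

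S100a1, a calcium sensor of muscle and chondrocytes that binds the ryanodine receptor, was at 34.5, 35.6 and 31.7 CPM in db/+ and at 36.5, 33.1 and 45.8 CPM in db/db. It was at 24.6, 31.3, 38.9 and 41 CPM in Con+Veh and at 12.5, 26.5, 42.9 and 37.8 CPM in STZ-HFD. Both pairs of groups overlapped, and the log2 fold changes were 0.16 (interval -0.40 to 0.72) and -0.16 (interval -0.65 to 0.33). Without STZ-HFD replicate 1, the library with the lowest S100a1 level, the STZ-HFD estimate was -0.002. Of 12 muscle markers, 5 were called higher in STZ-HFD by limma, against 1.3% of all genes, and 1 was called lower in db/db, where 1.66% of all genes were called in either direction. The part of muscle in the S100a1 values was not tested.

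S100a13, which takes part in the release of Fgf1, was low, at 3.11 to 7.84 CPM in db/+, 2.11 to 6.47 in db/db, 6.28 to 14.9 in Con+Veh and 5.26 to 17.2 in STZ-HFD. S100a16 was at 6.64 to 18.3, 8.56 to 15.2, 11.7 to 20.7 and 12.2 to 18.8 CPM in the same order. Ranges of both genes overlapped within each model. The log2 fold changes were -0.34 and -0.28 for S100a13 and -0.18 and -0.18 for S100a16, in db/db and STZ-HFD, with intervals that reached from -1.30 to 0.63 at the widest.

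S100g, the intestinal calcium buffer also called calbindin-D9k, was the least abundant member. It had 38, 62 and 100 counts in db/+ and 183, 145 and 161 in db/db, or 0.780, 1.08 and 1.55 against 2.88, 2.08 and 2.53 CPM. The groups did not overlap, but the log2 fold change of 1.15 with SE 0.42 did not pass (adjusted p = 0.135, limma). In Con+Veh it had 111, 78, 40 and 50 counts, or 3.02, 1.62, 1.88 and 2.72 CPM, and in STZ-HFD 14, 0, 17 and 19 counts, or 0.576, 0, 0.528 and 0.565 CPM. Each STZ-HFD library was below each Con+Veh library, which held in this direction for 2.77% of all genes. The 0 of STZ-HFD replicate 2 allows up to 0.103 CPM, the value of 3 counts, for counting error only.

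The log2 fold change of S100g in STZ-HFD was -2.70 with SE 0.78 and an interval of -4.34 to -1.06 (adjusted p = 0.0653, limma). With 1 library left out it spanned -3.67, without STZ-HFD replicate 4, to -1.90, without STZ-HFD replicate 2, with adjusted p of 0.0527 to 0.337 by limma. DESeq2 called it, at -2.45 with an adjusted p of 0.00411, the only member called there by limma, edgeR or DESeq2. The change in db/db minus that in STZ-HFD was 3.85 with SE 0.88 (adjusted p = 0.0384, limma). The call was lost with edgeR's quasi-likelihood test (3.59, adjusted p = 0.197), with limma without quality weights (4.31, 0.167), with transcript totals (4.58, 0.0849) and without both libraries whose names end in RIP, Con+Veh replicate 2 and STZ-HFD replicate 4 (4.92, 0.0803). It was also lost without Con+Veh replicate 3 or 4, STZ-HFD replicate 3 or 4, db/+ replicate 1 or 2, or db/db replicate 1 or 3, each by limma. Vdr, the vitamin D receptor that controls S100g in the gut, was at 9.70 to 17.3 CPM in Con+Veh and 4.44 to 7.46 CPM in STZ-HFD, and its estimate of -1.22 on the log2 scale did not pass (adjusted p = 0.0893, limma). Over all 14 libraries Vdr reached 49.77 CPM, a level that was in the db/+ or db/db group, and it was not called in db/db. A link between Vdr and S100g was not tested. The calcium channel Trpv6 was below the filter on low counts.

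The difference between models was not called for the other 7 genes. It was 1.22 for S100a6, 1.06 for S100b and 0.99 for S100a11, each higher in db/db with an unadjusted p under 0.05, as for 8.94% of all genes, and an adjusted p of 0.119 to 0.197 (limma). For S100a1, S100a10, S100a13 and S100a16 it was 0.32, -0.28, -0.06 and 0.01, with intervals that each held 0.

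The partner list held 40 genes, known S100 partners and also Vdr, a regulator of S100g, and 34 of them passed the filter on low counts. In db/db 0 of 34 were called by limma, edgeR or DESeq2, and the unadjusted p was under 0.05 for 11, 6 higher and 5 lower, where 21.1% of all genes had such a p. Ager was at 1.01 to 1.64 CPM in db/+ and 0.927 to 1.99 in db/db, and its estimate was 0.01. Cacybp was at 4.72 to 5.69 CPM in db/+ and 9.22 to 11.5 in db/db, and its estimate of 1.06 on the log2 scale did not pass (adjusted p = 0.0566, limma). Anxa1 had 0.93 (adjusted p = 0.1, limma), Myh9 -0.33, Fgf1 0.51, and the muscle calcium genes Ryr1 and Atp2a1 had -1.16 and -0.96, none of them called.

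In STZ-HFD 3 of the 34 partners were called, all higher, against 1.3% of all genes called higher. They were Ryr1, the calcium release channel of skeletal muscle (log2 fold change 1.27, SE 0.31), Atp2a2, a calcium pump of slow muscle and heart (1.28, SE 0.29), and Pgm1, an enzyme of glycogen metabolism (1.41, SE 0.32), with adjusted p of 0.0228 to 0.0332 (limma). edgeR and DESeq2 called 0 of the 34, and the count was 0 without Con+Veh replicate 3 or 4 or STZ-HFD replicate 3 or 4. Their level ranges overlapped between groups, at 317.1 to 1075 CPM in STZ-HFD and 255 to 815.4 in Con+Veh for Ryr1. The 12 skeletal muscle markers, none at 0 in any library, summed to 10110 to 24730 CPM in STZ-HFD and 8827 to 11550 in Con+Veh, and their part in these 3 calls was not tested. Ager had 0.45, Anxa1 -0.09, Cacybp 0.15, Myh9 -0.09, Fgf1 0.64 and Atp2a1 1.01 in STZ-HFD, none of them called.

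Of 13 genes around RAGE, Cd36, a scavenger receptor that also binds glycated proteins and fatty acids, was called higher in both models, with log2 fold changes of 2.16 (SE 0.31, adjusted p = 0.00784, limma) in db/db and 1.12 (SE 0.26, adjusted p = 0.0244, limma) in STZ-HFD. Adam10, a protease that sheds RAGE from the cell surface, was called lower in STZ-HFD at -1.12 (SE 0.19, adjusted p = 0.00658, limma) and had 0.39 in db/db. Hmgb1, another RAGE ligand, had -0.06 and 0.03. Cd36 is also an adipocyte gene. Of 8 adipocyte markers, 3 were called higher in db/db, against 1.23% of all genes, and 1 in STZ-HFD, against 1.3%. A link between these markers and Cd36 was not tested.

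Of 15 other genes of the S100 family, 14 were in the table and 4 passed the filter, S100a3, S100a8, S100a9 and Tchh. None of the 4 was called in either model by limma, and 0 had an unadjusted p under 0.05. Estimates were above 0 for 2 of 4 in db/db and 0 of 4 in STZ-HFD, against 47.3 and 47.2% of all genes. Their median log2 fold change was 0.89 in db/db and -2.21 in STZ-HFD, against -0.04 for all genes in each model. The 14 genes summed to 3.91 to 36.2 CPM in Con+Veh and 5.62 to 21.1 in STZ-HFD, with overlap. S100a3 was at 0 to 29.6 CPM over the 14 libraries. S100a8 was at 0.244 to 1.44 CPM in db/+ and 0.785 to 4.13 in db/db, and S100a9 at 0.0348 to 1.48 and 0.283 to 7.90, with overlap in both cases. Below the filter were S100a5 (74 counts over the 14 libraries), S100a7a (65), S100a14 (55), S100z (10) and S100a7l2 (1), and 5 genes of the cornified envelope, Flg, Hrnr, Crnn, Rptn and Tchhl1, with 36 to 143 counts.

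Similarity of profile was described by the root-mean-square difference of log2 CPM, centered on each gene's mean, over the 14 libraries and 13621 protein-coding genes. The gene closest to S100a10 was Svbp, at 0.133, and the gene closest to S100a11 was Cdkn2aip, at 0.172. S100a6 was closest to Slc35a5 (0.195), S100b to Crip2 (0.203), S100a1 to Tfdp1 (0.216) and S100a16 to Tars (0.246). S100a13 was nearly as close to Zfp276 as to Mrpl27, both at 0.338. The measure is not scaled to a gene's own spread, so genes that vary more lie further from all others. S100a4 and S100g varied most, with a root-mean-square deviation from their own means of 1.089 and 1.537. For S100a1 and S100a16 it was 0.45 and 0.421. Sh3bgrl was closest to S100a4, at 0.527, and Rassf6 to S100g, at 0.866. These distances do not show that the 2 genes lacked a near match. The next closest genes were Degs1 and Gng11 for S100a4, Golt1b and Gpx1 for S100a6, Gm2a and Rftn2 for S100b, Znhit1 and Abcf2 for S100a10, Rab23 and Sap30bp for S100a11, Sel1l for S100a1, Rpl36 for S100a13, Nop53 and Blvrb for S100a16, and Tlr13 and Il33 for S100g. Among the members themselves the closest pair was S100a10 and S100a16, at 0.333, followed by S100a11 and S100b, at 0.381. The libraries share their depth and composition between genes, so these distances are descriptive.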

How the data were processed

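Gene counts and transcript estimates were deposited by the authors for 14 libraries made from 1 to 50 ng of total RNA with whole-transcriptome amplification. Per the labels and the study's methods, the authors aligned reads to GRCm38 with STAR 2.7.9a1, made the gene counts with featureCounts 2.0.32 and the estimated counts per transcript with Salmon 1.5.23, with versions as the submitters' notes print them. The strand setting of counting was not given in the sources used here. Estimated counts were rounded where a count model used them. All libraries carry the same batch label.

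The 287 repeated lines were identical and used once, leaving 55487 genes. Genes above 1 CPM in at least 3 libraries were kept (16915), library sizes were scaled by TMM, and CPM are on that scale. All 4 groups were fitted together from the deposited counts with voomWithQualityWeights in limma 3.58.1 (R 4.3.3), as in the study's methods. edgeR 4.0.16 (quasi-likelihood) and DESeq2 1.42.0 were among the alternatives, with RLE factors, other filters, each model alone, a replicate block, transcript totals, ribosomal RNA removed, a GC trend removed, no fold minimum and each library left out. Scripts were tested on simulated counts. Log2 values are from this fit. Levels per kb divide by GENCODE exon length (GRCm38). Start regions are from RefSeq.

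The members and gene lists were chosen with earlier results of these data known. Named genes were all members, the tested family genes, 11 fixed partners, any partner or RAGE gene that was called, Hmgb1, and the 3 protein-coding genes closest in profile to each member, of which 1 is not reported here. Replicates are different mice, and the smallest chi-square per degree of freedom between replicates was 54.8, for Con+Veh replicates 3 and 4. No library therefore repeats another of its own group. Libraries of different groups were not compared in this way. The labels give 80% of energy from fat for the high-fat diet, and the study's methods give another value. Transcript estimates of S100a10 were not used here.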

Additional observations from a re-analysis of the deposited data

Results flagged for a closer look

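In the induced model, 18 sets of 4 CPM values were examined for a library standing apart, and 2 held such a library, where chance gives about 1 in 20. Both were STZ-HFD replicate 2, which had S100a16 at 18.8 CPM, above the other libraries of its group, with a gap of 0.906 of the group's range, and S100g at 0 CPM, below the others, with a gap of 0.917.

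The change in db/db differed from the change in STZ-HFD for 2 members by the test of the difference itself (limma, adjusted p of 0.0216 and 0.0384). The difference was 3.13 on the log2 scale for S100a4 and 3.85 for S100g. Both genes had an estimate above 0 in db/db and below 0 in STZ-HFD, but of these 4 estimates S100a4 in db/db alone passed the threshold in limma, and S100g in db/db did not (1.15, adjusted p = 0.135). Both calls of the difference were lost with edgeR, without quality weights, with transcript totals and with the replicate block.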

How the results depend on the processing

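For the 9 genes in db/db, the count of 1 called fell to 0 with edgeR's quasi-likelihood test, without quality weights and with transcript totals, and was 0 to 1 with a library left out. In STZ-HFD the count of 0 became 1 with DESeq2 and was 0 to 0 with a library left out. The count of 2 for the difference fell to 0 with edgeR, without quality weights and with transcript totals, to 1 without both libraries named RIP, and was 0 to 2 with a library left out. The partners called in db/db, 0, became 1 with each model alone or the GC trend removed, 2 with transcript totals, and 0 to 1 with a library left out. The partners called in STZ-HFD, 3, became 0 with DESeq2, edgeR, filterByExpr, no filter, transcript totals, no quality weights or no RIP libraries, 1 with each model alone, and 0 to 4 with a library left out.

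Same-numbered libraries were different mice, and their deviations from the group means correlated at -0.091 on average in db/db and -0.111 in STZ-HFD, against 0.046 and 0.038 for other pairs, so shared numbers were not treated as pairs. With the replicate number as a block, 3 members were called in db/db (S100a4, S100a6 and S100g) and 0 for the difference, and 3 and 0 partners were called in db/db and STZ-HFD. Over all genes the block called 1484 in db/db against 281 without it, and 6 in STZ-HFD against 441. Without the block, the 441 became 14 without Con+Veh replicate 3, 15 without Con+Veh replicate 4 and 18 without STZ-HFD replicate 3.

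Estimates near 0 changed sign. S100a1 in STZ-HFD was 0.02 with no filter. S100a13 in STZ-HFD was 0.22 with DESeq2, 0.20 with edgeR, 0.24 without quality weights and 0.10 without both RIP libraries, and its difference was 0.18 with the GC trend removed and 0.075 with the replicate block. S100a16 in db/db was 0.15 with the GC trend removed, and its difference was -0.16 with DESeq2, -0.15 with edgeR, -0.001 with RLE and -0.10 without quality weights. S100a6 in STZ-HFD was 0.043 with the block, 0.137 without quality weights and 0.037 without both RIP libraries. With a library left out, S100a13 spanned -0.66 to 0.15 in db/db, -0.57 to 0.25 in STZ-HFD and -0.59 to 0.43 for the difference, S100a16 spanned -0.57 to 0.18, -0.31 to 0.036 and -0.39 to 0.35, the difference of S100a10 spanned -0.60 to 0.088 and S100a6 in STZ-HFD spanned -0.40 to 0.003. The cause of these changes was not tested. S100g rested on 0 to 183 counts per library.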
